A study of Arabidopsis thaliana with 12 samples.

Results

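The genes described here are the 95 genes of Arabidopsis thaliana that the deposited annotation assigns to the biological process term "response to karrikin" and that had at least 30 reads summed over 12 libraries, out of 32833 genes in the table. The term is attached to 106 genes. Of the other genes, 6 had under 30 reads and 5 belong to the flavonoid pathway and were set aside. The term was taken up because genes carrying it had stood out between the P- and P+ conditions in earlier results of these data. Values between P- and P+ are therefore a description, printed without p-values, although each call of a gene rests on an adjusted p. The comparisons between genotypes and the difference between the condition effects were tested. That difference is built from the same P- and P+ values, so the count of members called by it is a description too.

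Karrikins are small molecules in smoke and char that break seed dormancy and alter seedling growth in light. The hydrolase KAI2 binds a signal derived from them, joins the F-box protein MAX2 and so marks the repressor SMAX1 for destruction, which frees transcription of response genes. KAI2 also perceives a plant-made signal of unknown identity, and its relative D14 perceives strigolactones through the same F-box protein. Many genes carry the term because their transcripts moved when seeds or seedlings were given karrikin, so the set holds enzymes, transporters and light-regulated genes beside the receptor and its repressor.

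RNA was sequenced from whole seedlings aged 8 days, with 3 libraries in each of 4 groups, and the design text states 3 biological replicates. The groups were phod2 P-, phod2 P+, KC P- and KC P+, where P- and P+ were read as low and high phosphate supply, the subject of the series. The labels give no concentration, do not spell out KC, and do not say which gene is altered in phod2, how many lines it came from, or when seedlings were harvested. The series title names LIP1P, a plastid lipoyl synthase gene, whose level averaged 13.8 ± 0.803 CPM in phod2 P-, 20.5 ± 0.997 CPM in phod2 P+, 24.6 ± 0.663 CPM in KC P- and 33.4 ± 1.46 CPM in KC P+ (SD, n = 3 each). CPM are counts scaled to a common library total. A gene is called changed where edgeR's quasi-likelihood test gave a Benjamini-Hochberg adjusted p of at most 0.05 over all tested genes and the difference was at least 2-fold.

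Total counts ran between 16821084 and 23327960 per library. Library phod2 P- replicate 2 stood apart from its group by transcript length. Its deviation from the mean of the other phod2 P- libraries had a Spearman correlation of -0.694 with exonic length across genes. The same measure was 0.573 and 0.578 in the other phod2 P- libraries, each set against a mean that includes replicate 2. The clock also differed between conditions. The 5 morning genes CCA1, LHY, RVE8, LNK1 and APRR9 summed to 501 to 616 CPM in phod2 P-, 1.98 to 3.22 CPM in phod2 P+, 547 to 567 CPM in KC P- and 3.97 to 5.49 CPM in KC P+. The time of harvest and the phosphate condition cannot be told apart in these libraries, and this holds for every P- against P+ value below. The photosynthetic markers RBCS1A, LHCB1.3 and LHCB2.1 summed to 28366 to 39244 CPM in phod2 P-, 26968 to 27259 CPM in phod2 P+, 29779.8 to 30249 CPM in KC P- and 26748 to 26939.8 CPM in KC P+. RBCS1A and LHCB1.3 made up most of this sum and were not called between conditions, while LHCB2.1 was 19.6-fold higher in phod2 P- than in phod2 P+ and 13.9-fold higher in KC P- than in KC P+. In whole seedlings, fewer cells of a type and less RNA per cell cannot be told apart.

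The receptor gene KAI2 was measured at 77.5, 89.8 and 77.4 CPM in phod2 P-, 45.8, 52.7 and 48.2 CPM in phod2 P+, 70.3, 67.6 and 65.4 CPM in KC P-, and 59.3, 63.1 and 55.2 CPM in KC P+. All 3 phod2 P- libraries lay above all 3 phod2 P+ libraries, and all 3 KC P- libraries above all 3 KC P+ libraries. The log2 difference, P- against P+, was 0.74 ± 0.080 (SE) in phod2 and 0.20 ± 0.080 (SE) in KC, both under 2-fold. The condition effect on KAI2 was larger in phod2 by 0.54 ± 0.113 on the log2 scale, with an adjusted p of 0.00612 by edgeR's quasi-likelihood test, and this difference was 1.45-fold and so not called.

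SMAX1, the repressor that KAI2 signalling removes, was measured at 109.7, 57.7 and 112 CPM in phod2 P-, 160.4, 157 and 154 CPM in phod2 P+, 117, 116 and 107 CPM in KC P-, and 127, 119 and 116 CPM in KC P+. The value of 57.7 CPM belongs to phod2 P- replicate 2, the library that stood apart by length, and SMAX1 has an exonic length of 3925 bases, against a median of 1718 bases over members. The log2 difference of P- against P+ was -0.75 ± 0.172 (SE) in phod2 and -0.10 ± 0.171 (SE) in KC. Without phod2 P- replicate 2 the phod2 difference was -0.46. The interaction was -0.66 ± 0.242 with an adjusted p of 0.0989 by edgeR's quasi-likelihood test, and -0.37 with an adjusted p of 1.64e-07 by edgeR without that library, in either case under 2-fold.

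KUF1 encodes an F-box protein, is induced by karrikin and limits KAI2 signalling. Its level was 9.29, 11 and 8.80 CPM in phod2 P-, 30.5, 28.1 and 30.6 CPM in phod2 P+, 7.48, 8.09 and 7.85 CPM in KC P-, and 13.1, 12.7 and 14.2 CPM in KC P+. The 3 phod2 P+ libraries stood above the other 9 libraries without overlap. In P+, KUF1 was 2.23-fold higher in phod2 P+ than in KC P+, a log2 difference of 1.15 ± 0.083 (SE) and an adjusted p of 1.41e-07 by edgeR's quasi-likelihood test. In P- the difference, phod2 P- against KC P-, was 0.31 ± 0.10 with an adjusted p of 0.0405 by the same edgeR test, under 2-fold. The effect of P- against P+ was -1.62 ± 0.088 in phod2 and -0.77 ± 0.095 in KC, and the difference between them, -0.85 ± 0.13, had an adjusted p of 0.000718 by edgeR's quasi-likelihood test without reaching 2-fold.

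The B-box factor BBX20, a karrikin-induced gene that acts with HY5 in light-grown seedlings, was measured at 1.86, 2.62 and 1.96 CPM in phod2 P-, 9.27, 12 and 11.3 CPM in phod2 P+, 2.87, 3.32 and 4.13 CPM in KC P-, and 12.8, 13.7 and 13 CPM in KC P+. It was lower in P- in both genotypes, with log2 differences of -2.36 ± 0.159 in phod2 and -1.94 ± 0.145 in KC (SE). HY5 is a bZIP factor that promotes the light form of seedling development. It had 18.4, 22.9 and 18.1 CPM in phod2 P-, 5.68, 7.21 and 6.99 CPM in phod2 P+, 17, 20.9 and 16.4 CPM in KC P-, and 13, 11.3 and 10.9 CPM in KC P+. HY5 therefore moved the other way to KUF1 and BBX20: P- was above P+ by 1.57 ± 0.134 on the log2 scale in phod2 and by 0.62 ± 0.126 in KC, where it stayed under 2-fold. The interaction of HY5 was 0.95 ± 0.184 with an adjusted p of 0.00394 by edgeR's quasi-likelihood test, 1.93-fold. It was past 2-fold when phod2 P- replicate 3, phod2 P+ replicate 2, KC P- replicate 2 or KC P+ replicate 3 was left out, at 1.00 to 1.06.

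**Figure D1:**
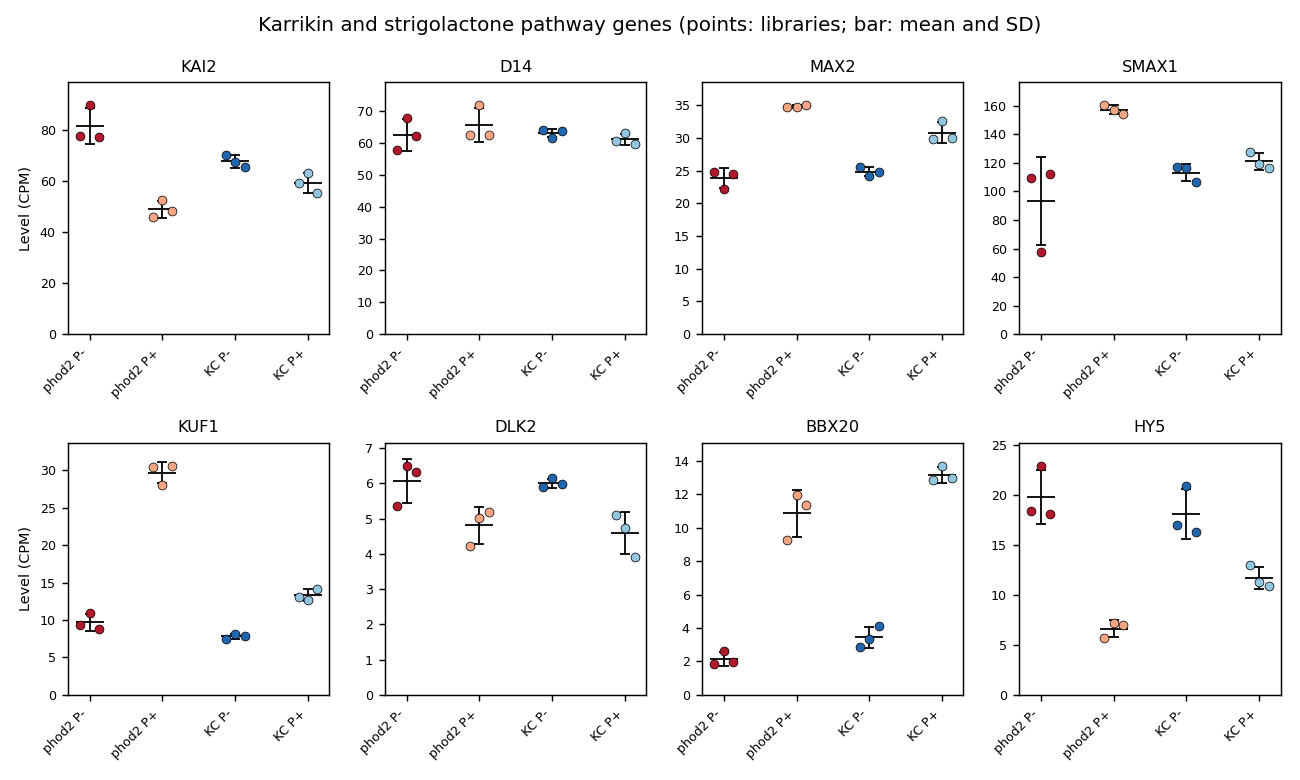
Levels in CPM (vertical axes, starting at 0) of 8 karrikin and strigolactone pathway genes in the 4 groups; points are libraries, bars the mean and SD of 3. The 3 phod2 P+ points of KUF1, between 28.1 and 30.6 CPM, stand above all other points, and SMAX1 shows 1 phod2 P- library at 57.7 CPM.

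KAI2, SMAX1, KUF1, BBX20 and HY5 are the set's members in a list of 25 genes of karrikin and strigolactone perception, signalling and synthesis, of which 22 could be tested. Of these 22, 4 rose and 2 fell in P- against P+ in phod2, and 4 rose and 1 fell in KC. These are 18.2% higher and 9.09% lower in phod2, against 14.1% and 10.3% of all tested genes, and 18.2% higher and 4.55% lower in KC, against 10.9% and 9.6%. The rises in both genotypes were D27, MAX1 (named CYP711A1 in the table) and LBO1, enzymes of strigolactone synthesis that do not carry the karrikin term. Of the other synthesis genes listed, MAX4 was not called, at log2 0.48 ± 0.320 in phod2 and 0.36 ± 0.293 in KC (SE). MAX3, with 19 reads, was not tested. D27, a plastid isomerase at the start of that pathway, had 7.84, 7.81 and 5.89 CPM in phod2 P- against 1.72, 1.46 and 1.79 CPM in phod2 P+, and 6.26, 6.70 and 6.59 CPM in KC P- against 2.68, 2.40 and 1.74 CPM in KC P+. The remaining rises were HY5 in phod2 and AT4G29920, the SMAX1 relative SMXL4, in KC. SMXL4 was higher in P- by log2 1.23 ± 0.168 in KC and by 0.99 ± 0.169 in phod2 (SE), where it fell just short of 2-fold. MAX1 was 2.30-fold higher in phod2 P- than in phod2 P+ and 2.25-fold higher in KC P- than in KC P+, and LBO1 2.15-fold and 2.23-fold higher.

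Between genotypes, KUF1 was the gene of this list that was called. No gene of the 22 was called between phod2 P- and KC P- by edgeR's quasi-likelihood test or by DESeq2, where edgeR called 4.69% of all tested genes, and 7 of 22 (31.8%) had an unadjusted p under 0.05, against 35.4% of all genes. In P+ KUF1 alone was called, by either tool, 1 of 22 (4.55%) against 7.4% of all tested genes by edgeR, and 13 (59.1%) had an unadjusted p under 0.05, against 38.4% of all genes. The interaction gave 0 calls by either tool, where edgeR called 3.08% of all genes, and 9 of 22 (40.9%) had an unadjusted p under 0.05, against 25.5% of all genes. D14 averaged 62.5 ± 4.99 CPM in phod2 P-, 65.6 ± 5.41 CPM in phod2 P+, 63.2 ± 1.27 CPM in KC P- and 61.1 ± 1.72 CPM in KC P+ (SD, n = 3 each), and the libraries of its groups overlapped within each genotype and within each condition. DLK2, another relative of KAI2 and a marker of its signalling, averaged 6.06 ± 0.622 CPM in phod2 P-, 4.81 ± 0.521 CPM in phod2 P+, 6.01 ± 0.13 CPM in KC P- and 4.59 ± 0.604 CPM in KC P+.

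Of the 95 members, 94 could be tested. In phod2, 38 rose and 18 fell in P- against P+, 56 in all, where 14.1% of all 20891 tested genes rose and 10.3% fell, 24.4% in all. In KC, 35 rose and 15 fell, 50 in all, where 10.9% of all tested genes rose and 9.6% fell, 20.5% in all. Nothing is read from these shares, since the term was chosen on this contrast. The median log2 difference of the members was 0.59 in phod2 and 0.55 in KC, against 0.01 over all tested genes in each. The 2 genotypes share no library here, but the term was chosen on this contrast, so nothing is read from their overlap either. In both genotypes 35 members rose, which is 37.2% of those tested against 9% of all genes, and 13 fell (13.8% against 7.5%). Of the remaining members, 37 were called in neither genotype (39.4% against 71.6%). Another 8 were called in 1 genotype, and 1, EIL4, in opposite directions (1.06% against 0.0527%). In phod2 alone 2 rose (2.13% against 5.05%) and 5 fell (5.32% against 2.8%). In KC alone 0 rose (0% against 1.91%) and 1 fell (1.06% against 2.05%).

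**Figure D2:**
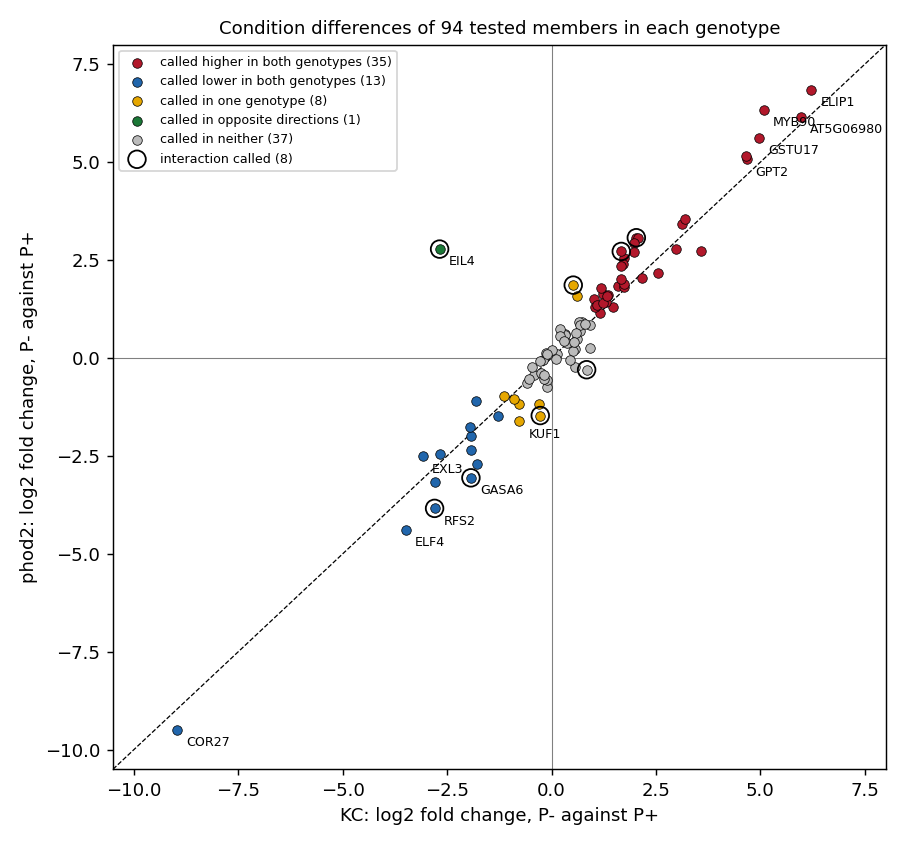
Log2 fold change of P- against P+ in KC (horizontal) and in phod2 (vertical) for the 94 tested members; colours give the calls in each genotype, rings mark members whose condition effect differed between genotypes by the call limits, and the dashed line marks equal change. Most members lie along the line, with COR27 at the lower left, ELIP1 at the upper right and EIL4 alone in the upper left part.

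Members together took 1.486% to 1.594% of all counts in phod2 P-, 0.9026% to 0.9155% in phod2 P+, 1.382% to 1.416% in KC P- and 0.8956% to 0.9012% in KC P+. LHCA4, a light-harvesting protein of photosystem I, made up 23.5% of the members' counts. Among tested members, 44 had their highest group mean in phod2 P-, 19 in phod2 P+, 19 in KC P- and 12 in KC P+. The group phod2 P- held the top mean of 46.8% of members, against 29% of all tested genes. Nothing is read from this share, since the term was chosen on the contrast of P- and P+. Of the other annotation terms, the one held by most members was regulation of transcription, with 9 of 94 (9.57%, against 2.84% of all tested genes). It was followed by the response to cold with 8 (8.51%, against 1.38%), to oxidative stress with 7 (7.45%, against 1.08%) and to salt stress with 6 (6.38%, against 2.25%).

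Of 9 members for karrikin perception and light signalling, 5 rose and 2 fell in P- in phod2 (55.6% and 22.2%, against 14.1% and 10.3% of all tested genes), and 4 rose and 1 fell in KC (44.4% and 11.1%, against 10.9% and 9.6%). KAI2 and SMAX1 were called in neither genotype, KUF1 fell and HY5 rose in phod2 but were not called in KC, and BBX20 fell in both. BBX24, a B-box repressor of HY5 action, had 206, 247 and 204 CPM in phod2 P- against 20.4, 20.2 and 21.1 CPM in phod2 P+, and 209, 200.5 and 203 CPM in KC P- against 25.1, 23.9 and 20.9 CPM in KC P+. HYH, the closest relative of HY5, was 11.7-fold higher in phod2 P- and 9.18-fold higher in KC P- than in the matching P+ group. BIC1 and BIC2, inhibitors of the blue-light receptors called cryptochromes, were higher in P- by log2 3.06 ± 0.167 and 2.78 ± 0.186 in phod2 and by 2.07 ± 0.159 and 2.98 ± 0.203 in KC (SE). For BIC1 the effect was larger in phod2 by 0.99 ± 0.240 on the log2 scale, with an adjusted p of 0.015 by edgeR's quasi-likelihood test, just under 2-fold. DESeq2 placed it at 1.00 and past both limits.

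All 4 clock members were called in both genotypes, 2 higher and 2 lower in P- (50% each way, against 14.1% and 10.3% of all tested genes in phod2 and 10.9% and 9.6% in KC), and COR27 had the largest fall of the set. COR27, a cold-induced regulator of the clock and of light growth, was measured at 0.136, 0.187 and 0.168 CPM in phod2 P-, 122, 122 and 120.5 CPM in phod2 P+, 0.265, 0.222 and 0.18 CPM in KC P-, and 115, 112 and 116 CPM in KC P+. The difference was 725-fold in phod2 and 498-fold in KC, lower in P-. ELF4, an evening-complex protein, was lower in P- by 20.8-fold in phod2 and by 11.1-fold in KC. AT5G06980, listed as LNK4 among the RefSeq synonyms, went the other way and was higher in P- by 71.0-fold in phod2 and by 63.2-fold in KC. GIGANTEA (GI), a scaffold of the clock and of photoperiod flowering, was higher in P- by 5.82-fold in phod2 and by 3.32-fold in KC. The evening genes of the clock list, 6 genes with ELF4 and GI among them, summed to 76.9 to 97.8 CPM in phod2 P-, 475 to 481 CPM in phod2 P+, 104 to 106 CPM in KC P- and 483 to 491 CPM in KC P+.

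Promoter sequences are shown for 3 members with large differences, to place the clock and light motifs in sequence. Each run covers 250 bases before and 50 bases after the annotated gene start, 5′ to 3′ on the gene's strand, read from the RefSeq genome TAIR10.1. The regions are chr1:1829934-1830233 on the minus strand for BBX24, chr1:22824164-22824463 on the plus strand for GPT2 and chr3:8085620-8085919 on the minus strand for ELIP1. Capitals mark the evening element AAAATATCT on either strand in BBX24 and GPT2, the phosphate-response motif P1BS, GNATATNC, also in GPT2, and the G-box CACGTG in ELIP1.
BBX24: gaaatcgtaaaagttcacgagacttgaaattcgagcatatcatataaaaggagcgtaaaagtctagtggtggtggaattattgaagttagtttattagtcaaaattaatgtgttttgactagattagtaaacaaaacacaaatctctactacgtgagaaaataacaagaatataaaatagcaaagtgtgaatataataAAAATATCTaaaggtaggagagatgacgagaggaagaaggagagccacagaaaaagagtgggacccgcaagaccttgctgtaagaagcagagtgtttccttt
GPT2: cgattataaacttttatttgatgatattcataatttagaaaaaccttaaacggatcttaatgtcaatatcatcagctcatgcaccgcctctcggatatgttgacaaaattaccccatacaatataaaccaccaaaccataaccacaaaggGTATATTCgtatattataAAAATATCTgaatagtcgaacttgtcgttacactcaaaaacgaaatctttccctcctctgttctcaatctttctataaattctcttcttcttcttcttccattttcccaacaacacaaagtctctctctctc
ELIP1: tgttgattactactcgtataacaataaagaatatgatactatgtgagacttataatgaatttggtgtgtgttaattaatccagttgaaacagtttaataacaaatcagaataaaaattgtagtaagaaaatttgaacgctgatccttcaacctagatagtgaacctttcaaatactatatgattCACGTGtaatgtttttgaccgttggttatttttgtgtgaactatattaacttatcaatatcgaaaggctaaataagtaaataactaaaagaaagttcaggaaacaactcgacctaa
BBX24 held the evening element at 52 bases before the gene start and GPT2 at 82, and both genes were higher in P- in each genotype. The other members with the element were COR27, lower in P- in both genotypes, and AT2G16365, called in neither. The element was in 5.71% of members called higher in both genotypes and in 7.69% of those called lower in both. Over all members, 4 of 95 promoters held the evening element (4.21%), against 2.97% of promoters of tested genes, and 10 held a G-box (10.5%), against 8.75%. P1BS was in 6 (6.32%), against 6.29%. These shares are a description of letters in a window.

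Of 8 members for phenylpropanoids and aromatic amino acids, 7 rose in each genotype, 87.5% against 14.1% of all tested genes in phod2 and 10.9% in KC. As for every role described here, this contrast is the one that drew attention to the term, and nothing is read from the shares. PAL1, phenylalanine ammonia-lyase at the pathway's entry, was measured at 543, 462 and 550.3 CPM in phod2 P-, 79.2, 79.4 and 77.8 CPM in phod2 P+, 458, 463 and 456 CPM in KC P-, and 142, 146 and 146 CPM in KC P+. The rise was 6.58-fold in phod2 and 3.17-fold in KC. CYP73A5, which acts next in the pathway, was higher in P- by 5.27-fold in phod2 and 3.29-fold in KC, and CAD4, which makes lignin alcohols, by 3.13-fold and 2.36-fold. ADT3, an arogenate dehydratase of phenylalanine synthesis, was the member under 2-fold, at 1.77-fold in phod2 and 1.59-fold in KC. Reads of the near-identical PAL1 and PAL2 may have been shared in the counting.

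Of 10 plastid and photosynthesis members, 8 rose in each genotype, 80% against 14.1% of all tested genes in phod2 and 10.9% in KC. ELIP1, an early light-induced protein of the thylakoid, was measured at 239, 314 and 242 CPM in phod2 P-, 2.5, 2.34 and 2.06 CPM in phod2 P+, 99.9965, 103 and 103 CPM in KC P-, and 1.36, 1.15 and 1.53 CPM in KC P+. The rise was 115-fold in phod2 and 74.7-fold in KC. GPX7, a plastid peroxidase of the glutathione peroxidase family, rose 35.6-fold in phod2 and 25-fold in KC. PSBS, needed to dissipate excess light as heat, rose 2.53-fold and 2.12-fold. PETC, the Rieske iron-sulfur protein, averaged 1167 ± 257 CPM in phod2 P-, 1069.5 ± 10.7 CPM in phod2 P+, 969 ± 18.1 CPM in KC P- and 1063 ± 12.4 CPM in KC P+ (SD, n = 3 each), with the groups of phod2 overlapping.

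Per gene length, in FPKM, LHCA4 was the most abundant member at a mean of 2169.9 over 12 libraries, followed by PETC at 972, PSBS at 854 and the leaf ferredoxin FD1 at 605. ADC2, an arginine decarboxylase of putrescine synthesis, came next at 231. The median of all members was 16.6 FPKM, against 8.88 FPKM over tested genes. LHCA4 averaged 3141 ± 165 FPKM in phod2 P-, 1238 ± 24 FPKM in phod2 P+, 3004 ± 125 FPKM in KC P- and 1296 ± 13 FPKM in KC P+ (SD, n = 3 each).

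Of 10 detoxification and stress members, 5 rose and 1 fell in phod2, and 4 rose and 1 fell in KC. The shares that rose were 50% in phod2 and 40% in KC, against 14.1% and 10.9% of all tested genes, and the share that fell, 10% in each, was close to the 10.3% and 9.6% of all genes. GSTU17, a glutathione transferase, was measured at 178, 210.1 and 187 CPM in phod2 P- against 2.92, 4.34 and 4.34 CPM in phod2 P+, and at 163, 152 and 162 CPM in KC P- against 4.72, 5.35 and 5.15 CPM in KC P+. ADC2 rose 4.07-fold in phod2 and 4.49-fold in KC. The chaperone HSP70-3 rose 3.59-fold and 3.03-fold. AT5G05600, a dioxygenase linked to the removal of toxic substances in its annotation, was the member that fell, by 1.48 ± 0.091 on the log2 scale in phod2 and by 1.28 ± 0.086 in KC (SE).

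Of 12 sugar and cell wall members, 2 rose and 6 fell in P- in each genotype. The share that fell was 50%, against 10.3% of all tested genes in phod2 and 9.6% in KC, and the share that rose was 16.7%, near the 14.1% of all genes in phod2 and against 10.9% in KC. RFS2, a raffinose synthase family protein, was measured at 94.1, 75.3 and 96.5 CPM in phod2 P-, 1276, 1282 and 1262 CPM in phod2 P+, 117, 124 and 118 CPM in KC P-, and 842, 829 and 829 CPM in KC P+. BGAL10, a beta-galactosidase that trims wall xyloglucan, fell by 3.16 ± 0.075 on the log2 scale in phod2 and by 2.80 ± 0.074 in KC (SE). EXL3, an EXORDIUM-like wall protein, fell by 2.51 ± 0.057 and 3.08 ± 0.058. AtSTS, another raffinose-family enzyme, was low, with 0.952, 0.25 and 0.617 CPM in phod2 P- and 1.35, 1.12 and 1.66 CPM in phod2 P+. Its difference of -1.11 in phod2 was -0.75 without phod2 P- replicate 2 and -0.95 without phod2 P+ replicate 3, both short of the limits.

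Of the transporters, OPT4, an oligopeptide transporter, was measured at 6.62, 4.81 and 6.67 CPM in phod2 P-, 40.7, 38.0 and 39.9 CPM in phod2 P+, 12, 12.3 and 12 CPM in KC P-, and 43.2, 40.04 and 41.4 CPM in KC P+. It was lower in P- by 6.49-fold in phod2 and by 3.43-fold in KC. The ammonium transporter gene AMT1-1, at 34 summed reads just inside the limit of 30, was not tested, and it is covered over 1709 bases by AT4G13505 on the opposite strand, with 191 reads. The strand setting of the counting is not given in the sources used here. Other members near the limit were AT3G21080 with 97 reads and PIP2, a secreted defence peptide, with 100 reads, and just outside it lay AT2G47935 with 23 and the MYB factor MYB114 with 16 reads.

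Of 12 members for ubiquitin ligases, proteases and defence, 4 rose and 1 fell in phod2, and 4 rose and 0 fell in KC (33.3% higher in each, against 14.1% and 10.9% of all tested genes), so most were not called. Of 9 hormone and development members, 3 rose and 1 fell in phod2 (33.3% and 11.1%, against 14.1% and 10.3% of all genes), and 2 rose and 3 fell in KC (22.2% and 33.3%, against 10.9% and 9.6%). KRP1, a calcium-binding protein, had 85.1, 119 and 88.4 CPM in phod2 P- against 14.6, 13.8 and 15.3 CPM in phod2 P+, and 111, 120.3 and 119 CPM in KC P- against 10.5, 9.60 and 9.38 CPM in KC P+. CRRSP55, a secreted protein with cysteine-rich repeats, was higher in P- by 6.53-fold in phod2 and by 3.94-fold in KC. PID, a kinase that directs auxin export, was higher in P- by 2.48-fold in phod2 and by 2.76-fold in KC. ALKBH10B, an RNA demethylase, was at 109, 104 and 116 CPM in phod2 P- against 47.9, 47.9 and 52.6 CPM in phod2 P+, and at 116, 117 and 112 CPM in KC P- against 50.4, 53.0 and 50.2 CPM in KC P+. Its groups separated by condition and overlapped between genotypes in each condition.

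**Figure D3:**
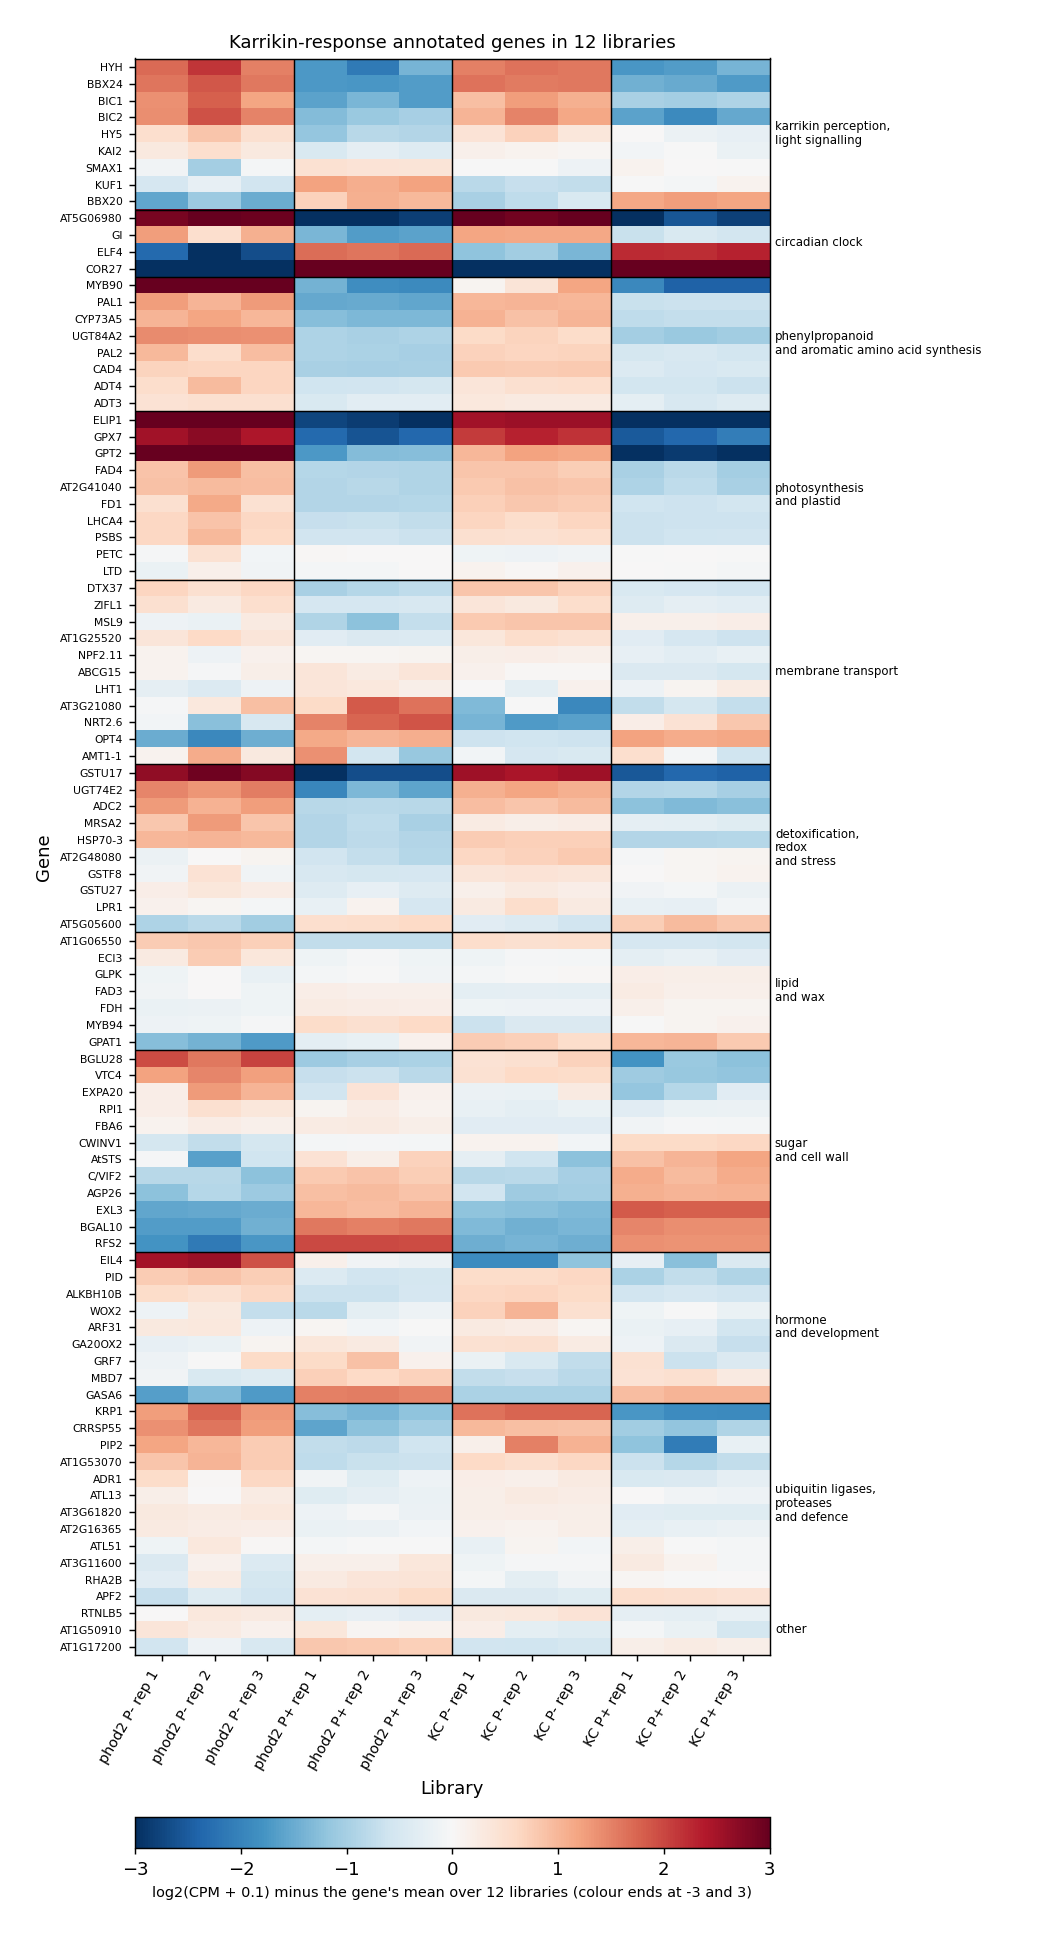
Level of each of the 95 members (rows, grouped by role) in the 12 libraries (columns), as log2(CPM + 0.1) minus the gene's mean; red is above and blue below the mean, and colours end at -3 and 3. The P- and P+ columns of the same genotype differ in most light, phenylpropanoid, plastid and sugar rows, and phod2 P- is above KC P- in GPT2, MYB90 and EIL4.

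Between genotypes in P-, 5 members rose and 2 fell in phod2 P- against KC P-, 7 in all, where 2.23% of all tested genes rose and 2.46% fell, 4.69% in all. The members that rose were GPT2, MYB90, BGLU28, ELIP1 and EIL4, and those that fell were GPAT1 and ELF4. As shares of 94 tested members, 5.32% rose and 2.13% fell, so the share that fell was close to that of all genes. The members' median log2 difference was 0.10, against 0.00 over all genes, and it was 0.05 without phod2 P- replicate 2. The phosphate-starvation genes SPX1, IPS1, PAP17, PHT1-4 and MGD3 also stood apart by genotype, summing to 1081 to 1271 CPM in phod2 P-, 142 to 145 CPM in phod2 P+, 337 to 364 CPM in KC P- and 20.5 to 22.2 CPM in KC P+. Their part in the members' differences was not tested.

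GPT2, which moves glucose 6-phosphate against phosphate across the plastid envelope, was measured at 51.3, 47.9 and 54.3 CPM in phod2 P-, 1.20, 1.66 and 1.66 CPM in phod2 P+, 8.44, 9.75 and 9.47 CPM in KC P-, and 0.213, 0.491 and 0.393 CPM in KC P+. The 4 groups did not overlap. GPT2 was 5.55-fold higher in phod2 P- than in KC P- (log2 2.47 ± 0.10, adjusted p 1.4e-09 by edgeR's quasi-likelihood test). In P+ it was 4.20-fold higher in phod2 P+ than in KC P+ (log2 2.07 ± 0.268, adjusted p 4.52e-05 by the same edgeR test). It was the only member called higher in both conditions, as 0.919% of all tested genes were. On the log2(FPKM + 1) scale the P+ difference was 0.61 and short of 2-fold.

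MYB90, an activator of anthocyanin synthesis, had 5.26, 6.12 and 5.89 CPM in phod2 P-, 0.104, 0.0487 and 0.0448 CPM in phod2 P+, 0.478, 0.609 and 1.14 CPM in KC P-, and 0.0425, 0 and 0 CPM in KC P+. In P- it was 7.80-fold higher in phod2 (log2 2.96 ± 0.251, adjusted p 1.21e-06 by edgeR's quasi-likelihood test). The KC P- libraries held 39 reads in all, against 1 in KC P+, a ratio of 47.1, P- over P+ and scaled to library size, with a 95% counting interval of 7.98 to 1909. MYB90 lies in a cluster of near-identical MYB genes, and reads may have been split among them.

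BGLU28, a beta-glucosidase that breaks down glucosinolates, had 15.4, 11.9 and 16.1 CPM in phod2 P- against 5.31, 5.48 and 6.41 CPM in KC P-, and 1.77, 1.90 and 1.97 CPM in phod2 P+ against 1.06, 1.75 and 1.61 CPM in KC P+. The P- difference was 2.53-fold (log2 1.34 ± 0.142, adjusted p 1.07e-05 by edgeR's quasi-likelihood test). The P+ difference was 0.37 ± 0.224 with an adjusted p of 0.248 by edgeR's quasi-likelihood test, and its groups did not overlap. The interaction, 0.97 ± 0.268 with an adjusted p of 0.0305 by edgeR's quasi-likelihood test, was 1.96-fold. It passed 2-fold without phod2 P- replicate 2, at 1.12, without KC P- replicate 3, at 1.06, and without KC P+ replicate 1, at 1.17. For ELIP1 the P- difference was 2.6-fold (log2 1.38 ± 0.096, adjusted p 1.86e-07 by edgeR's quasi-likelihood test), with every phod2 P- library above every KC P- library.

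GPAT1, a glycerol-3-phosphate acyltransferase, was lower in phod2 in both conditions, with 0.635, 0.562 and 0.449 CPM in phod2 P- against 2.92, 2.83 and 2.46 CPM in KC P-, and 1.35, 1.41 and 1.84 CPM in phod2 P+ against 3.44, 3.49 and 2.97 CPM in KC P+. The groups did not overlap in either condition. The difference was 4.90-fold in P- (log2 -2.29 ± 0.225, adjusted p 5.19e-06 by edgeR's quasi-likelihood test). It was 2.13-fold in P+ (log2 -1.09 ± 0.173, adjusted p 0.000276 by edgeR's quasi-likelihood test). ELF4 had 1.81, 0.999 and 1.40 CPM in phod2 P- against 4.03, 4.54 and 3.59 CPM in KC P-, a 2.81-fold difference (log2 -1.49 ± 0.168, adjusted p 1.89e-05 by edgeR's quasi-likelihood test). Of the 6 evening clock genes listed, APRR5 was the other one called there, at log2 -1.32 ± 0.261 (SE), and of the 5 morning genes 0 were. A difference in clock timing between genotypes was not tested. OPT4 was 1.99-fold lower in phod2 P- than in KC P- and passed 2-fold when phod2 P- replicate 1 or 3, or KC P- replicate 1 or 3, was left out. Without KC P- replicate 3, 4 members fell, the other addition being the homeobox gene WOX2.

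In P+, 4 members rose and 3 fell in phod2 P+ against KC P+, 7 in all, where 1.98% of all tested genes rose and 5.42% fell, 7.4% in all. Those that rose were GPT2, KUF1, NRT2.6 and AT3G21080, and those that fell were GPAT1, MSL9 and GI. The members' median log2 difference was 0.01, against 0.04 over all genes. NRT2.6, of the nitrate transporter family, had 1.82, 2.19 and 2.42 CPM in phod2 P+ against 0.68, 0.818 and 1.09 CPM in KC P+, and 0.544, 0.187 and 0.393 CPM in phod2 P- against 0.159, 0.111 and 0.12 CPM in KC P-. Its P+ difference was 2.48-fold (log2 1.31 ± 0.252, adjusted p 0.00132 by edgeR's quasi-likelihood test). AT3G21080, annotated as an ABC transporter-like protein, had 0.469, 1.27 and 1.07 CPM in phod2 P+ against 0.128, 0.164 and 0.131 CPM in KC P+, and its P+ difference was log2 2.71 ± 0.575 with an adjusted p of 0.00271 by edgeR's quasi-likelihood test. In phod2 P- against KC P- both were also higher but not called, at log2 1.54 for NRT2.6 and 1.83 for AT3G21080. NRT2.6 was called there without phod2 P- replicate 2, at 1.83, and AT3G21080 without KC P- replicate 2, at 3.61. Both genes rest on few reads.

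MSL9, a mechanosensitive channel, had 6.72, 5.36 and 7.66 CPM in phod2 P+ against 14.2, 14.1 and 14.7 CPM in KC P+, and 11.4, 11.1 and 15.4 CPM in phod2 P- against 22.0, 22.9 and 22.6 CPM in KC P-. It was lower in phod2 in every library of both conditions. The P+ difference was -1.12 ± 0.134 on the log2 scale (adjusted p 2.03e-05 by edgeR's quasi-likelihood test) and -0.99 without phod2 P+ replicate 2. MSL9 overlaps ACL5 on the opposite strand by 196 bases, and 4 of 7 root markers, CASP1, WER, COBL9 and EXPA7, also fell in phod2 P+ against KC P+, while SHR, SCR and WOX5 were not called and overlapped between the groups. The 7 root genes summed to 76.8 to 82.6 CPM in phod2 P+, against 105 to 116 CPM in KC P+, a gap made mostly by CASP1, at 7.99 ± 0.645 CPM in phod2 P+ and 32.0 ± 2.48 CPM in KC P+ (SD, n = 3 each). Their part in the result was not tested. GI had 6.98, 5.65 and 5.87 CPM in phod2 P+ against 11.5, 13.1 and 12.4 CPM in KC P+, a difference that lay at the 2-fold limit (log2 SE 0.170, adjusted p 0.000491 by edgeR's quasi-likelihood test). It was at -0.94 on the log2 scale without phod2 P+ replicate 2. It was also not called without phod2 P+ replicate 3, KC P- replicate 2, KC P+ replicate 2 or KC P+ replicate 3. Without phod2 P+ replicate 2 GPAT1 was the 1 member that fell. Of the other clock genes listed, LNK1 alone was called in phod2 P+ against KC P+, at log2 -1.47 ± 0.227 (SE). Clock timing between genotypes was not tested.

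**Figure D4:**
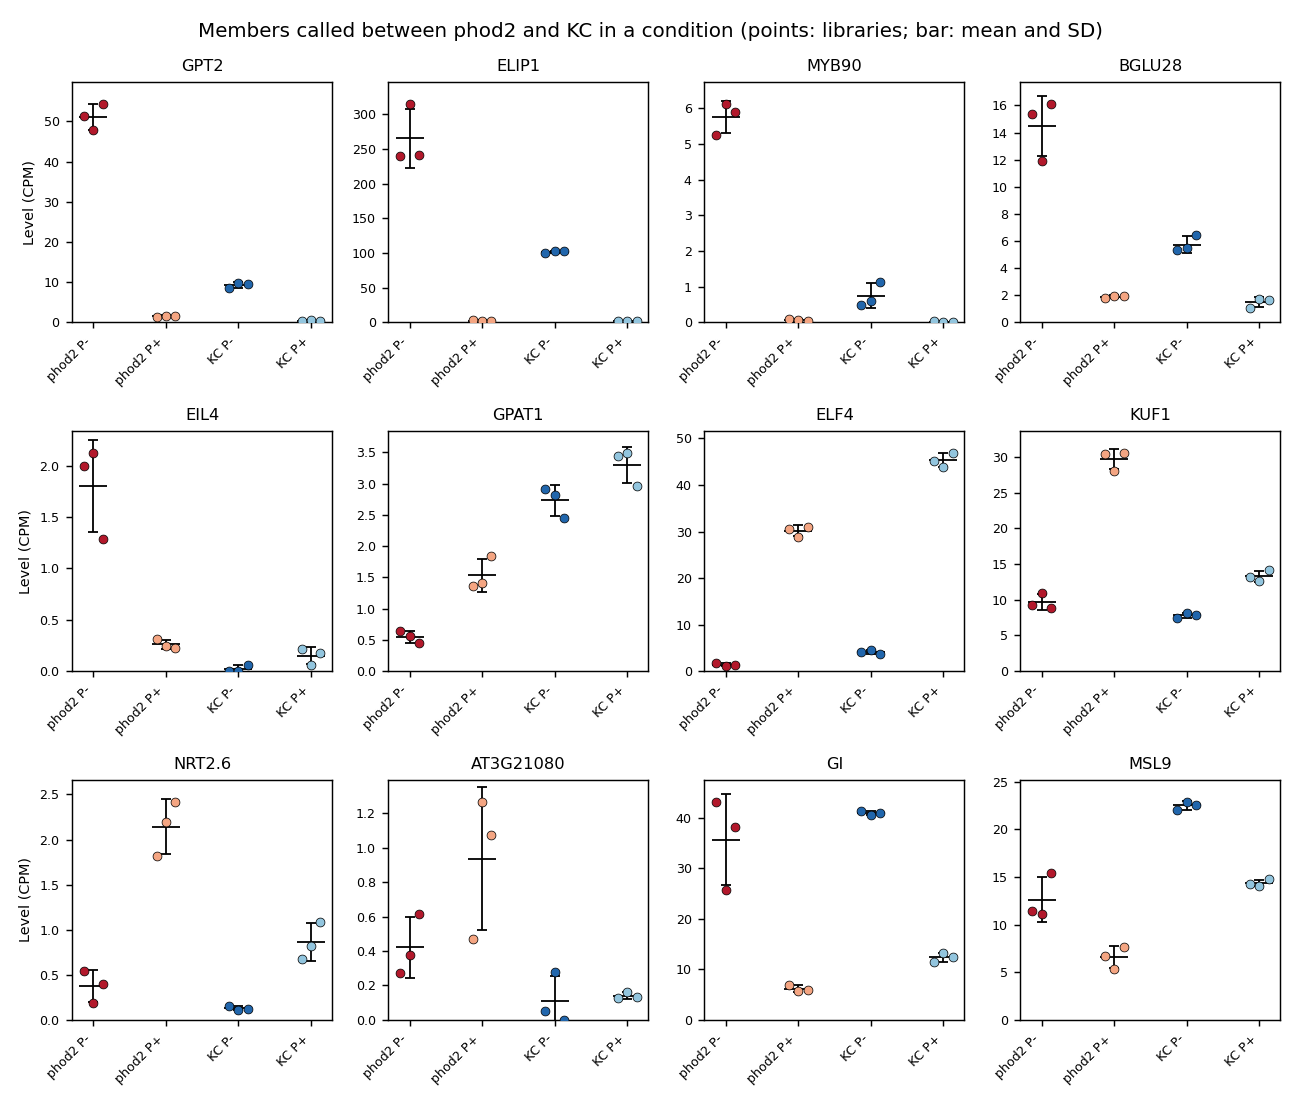
Levels in CPM (vertical axes, starting at 0) in the 4 groups of the 12 members called between phod2 and KC in P- or in P+; points are libraries, bars the mean and SD of 3. GPT2 is higher in phod2 in both conditions, GPAT1 is lower in both, and the high phod2 P+ values of KUF1 stand alone.

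The condition effect differed between genotypes in 8 members, with the log2 difference of P- against P+ higher in phod2 in 4 and lower in 4, where 2.39% of all tested genes were higher and 0.685% lower, 3.08% in all. The median interaction of the members was 0.15, against -0.00 over all genes. The interaction is built from the P- and P+ values on which the term was chosen, so nothing is read from this count or median. The members with a higher value in phod2 were EIL4, MRSA2, PAL1 and UGT74E2. For PAL1 the rise was larger in phod2 by 1.05 ± 0.090 on the log2 scale, and its phod2 P+ libraries, at 77.8 to 79.4 CPM, lay below those of KC P+, at 142 to 146 CPM. MRSA2, a peptide methionine sulfoxide reductase, had 44.1, 61.1 and 44.5 CPM in phod2 P- against 13.5, 14.8 and 12.7 CPM in phod2 P+, and 29.5, 28.4 and 29.1 CPM in KC P- against 20.9, 20.3 and 19.5 CPM in KC P+. UGT74E2, a glucosyltransferase of the auxin precursor indole-3-butyric acid, was higher in P- by 8.41-fold in phod2 and by 4.08-fold in KC.

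The log2 difference was lower in phod2 in GASA6, GA20OX2, RFS2 and GPAT1. GASA6, a gibberellin-regulated peptide, was measured at 22.8, 28.9 and 22.2 CPM in phod2 P- against 207, 209 and 199.9 CPM in phod2 P+, and 37.6, 37.5 and 37.4 CPM in KC P- against 137, 146 and 146 CPM in KC P+. GA20OX2, a gibberellin 20-oxidase, had 2.36, 2.44 and 2.97 CPM in phod2 P- against 3.59, 3.41 and 2.6 CPM in phod2 P+, where the groups overlapped, and 3.93, 3.99 and 3.36 CPM in KC P- against 2.51, 2.07 and 1.70 CPM in KC P+, where they did not. The interaction was -1.13 ± 0.117 for GASA6 and -1.14 ± 0.262 for GA20OX2 (SE).

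EIL4, a relative of the ethylene-signalling factor EIN3, had 1.99, 2.12 and 1.29 CPM in phod2 P-, 0.312, 0.244 and 0.224 CPM in phod2 P+, 0, 0 and 0.0599 CPM in KC P-, and 0.213, 0.0546 and 0.174 CPM in KC P+. In counts it had 101 reads in phod2 P- and 1 in KC P-, a ratio of 96.8 with a 95% counting interval of 17 to 3861. The KC P- libraries held 1 read against 10 in KC P+, a ratio of 8.27, P+ over P-, with an interval of 1.18 to 359. This fall in KC was no longer called without KC P- replicate 1 or 2, or KC P+ replicate 1 or 3. The seed storage genes CRA1 and CRC had the same order of group means as EIL4, while SESA1 was at 0 in every group but KC P+. The summed level of CRA1, CRC and SESA1, most of it CRA1, was 35.2 to 39.3 CPM in phod2 P- and 6.27 to 7.14 CPM in phod2 P+. It was 0.584 to 0.775 CPM in KC P- and 1.25 to 2.70 CPM in KC P+. The part of these genes in the EIL4 values was not tested.

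**Figure D5:**
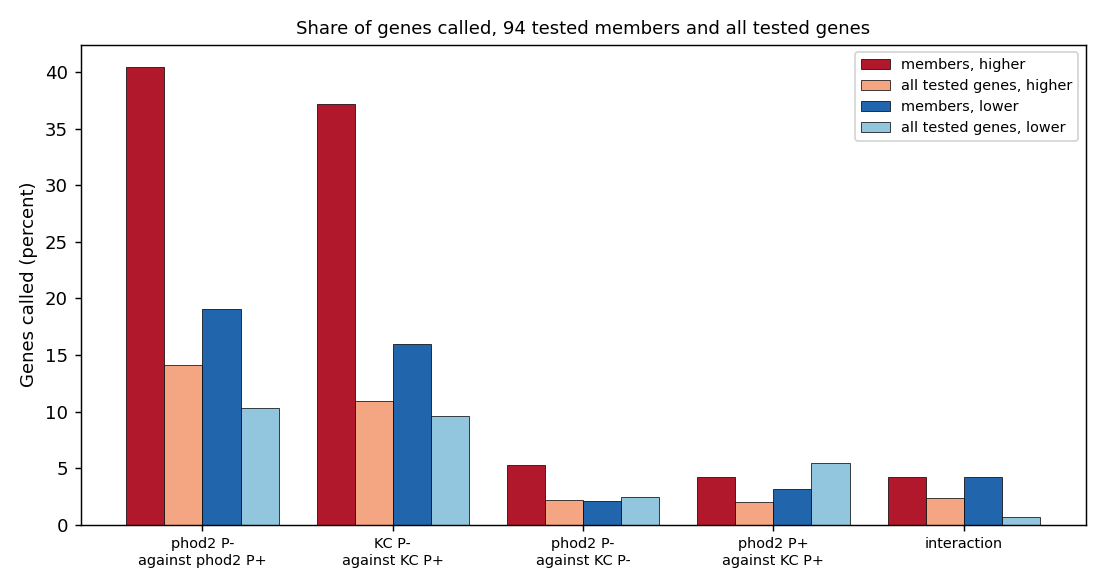
Share of genes called (vertical axis, percent, starting at 0) in each comparison, for the 94 tested members and for all 20891 tested genes, higher and lower shown apart. The members' bars for P- against P+ rest on the contrast that drew attention to the term, and the interaction bars are built from the same values. None of the bars outside P- against P+ is above 5.42%.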

How the data were processed

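Raw read counts and FPKM values (counts set against exon length and library total) were deposited by the authors in 1 table of 12 libraries, per the file headers. The library headings of KC P+ read WT and were matched to KC by replicate and condition. The aligner, counting program, annotation and use of strand are not given in the sources used here, and the submitters' processing notes list mm10, a mouse assembly. Gene coordinates equal those of the RefSeq annotation TAIR10.1 in 99.95% of 32536 matched genes and in all 95 members. Recomputing the deposited FPKM values from counts, exonic lengths and totals gave 100% within 0.006.

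Counts of all genes were fitted with edgeR 4.0.16 (TMM factors between 0.928 and 1.02, filterByExpr with a minimum count of 10, 4 group means over 12 libraries, quasi-likelihood test, Benjamini-Hochberg adjustment over 20891 genes). The script was tested on simulated data. Limits of 2-fold and 0.05 follow the series' design text. The biological coefficient of variation was 8.47%. Alternatives used DESeq2 1.42.0 and limma 3.58.1. Total counts of 16821084 to 23327960 set the precision, and counting intervals cover counting error only. A floor of 3 counts over a group corresponds to 0.0537 CPM for phod2 P-, 0.0483 CPM for phod2 P+, 0.056 CPM for KC P- and 0.0463 CPM for KC P+. Reads from near-identical paralogs and from overlapping genes may have been shared or split.

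The members, gene lists and promoter motifs were chosen with earlier results of these data known. Named genes were, per comparison, the 6 largest rises and 6 largest falls among called members without overlap between groups, the 6 largest interactions, the karrikin and strigolactone pathway members and called pathway genes, the 5 members with the highest FPKM and the genes at the count limit. Other members were chosen for their role after their values had been seen.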

Additional observations from a re-analysis of the deposited data

Results flagged for a closer look

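The condition effect, P- against P+, differed between phod2 and KC beyond the limits in 8 members, tested as an edgeR interaction term with p-values adjusted over all genes by Benjamini-Hochberg, namely the log2 difference in phod2 minus that in KC. EIL4 had 5.45 ± 1.042 (SE) with an adjusted p of 0.00357, resting on 1 read in KC P-. MRSA2 had 1.34 ± 0.160 with an adjusted p of 8.67e-05. PAL1 had 1.05 ± 0.090 with an adjusted p of 4.96e-06. UGT74E2 had 1.04 ± 0.163 with an adjusted p of 0.000782, and fell just short of 2-fold without phod2 P- replicate 3 and to 0.90 without phod2 P+ replicate 1. GPAT1 had -1.20 ± 0.295 with an adjusted p of 0.0164, and -1.05 with an adjusted p of 0.0504 by edgeR without phod2 P+ replicate 3. GA20OX2 had -1.14 ± 0.262 with an adjusted p of 0.011. GASA6 had -1.13 ± 0.117 with an adjusted p of 2.59e-05. RFS2 had -1.04 ± 0.106 with an adjusted p of 2.16e-05, -0.90 without phod2 P- replicate 2 and -0.87 with the gene-length trend removed. With limma on log2(FPKM + 1), PAL1 (0.98), EIL4 (0.93), UGT74E2 (0.81), GA20OX2 (-0.77) and GPAT1 (-0.28) were short of 2-fold. With log2(FPKM + 0.1), GPAT1 was at -0.96, and PAL1 and UGT74E2 fell just short of 2-fold.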

How the results depend on the processing

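Each of 15 summary results (counts of members called and median differences) was recomputed under 19 settings, and 269 of the 285 values kept their direction and size. For single named genes, 3432 of 3515 values kept their call, 49 lost it and 34 gained it, and no called direction reversed. The causes of the shifts below were not tested. With limma on log2(FPKM + 1), the members' median of P- against P+ was 0.47 in phod2 and 0.44 in KC, the median interaction was 0.08, 1 member fell in phod2 P- against KC P-, 1 rose and 0 fell in phod2 P+ against KC P+, and 2 had a lower interaction; this pseudocount shrinks low genes. With log2(FPKM + 0.1), the median was 0.51 in phod2 and 0.10 for the interaction, and 1 member fell in phod2 P+ against KC P+. With the gene-length trend removed, the medians were 0.73 in phod2 and 0.63 in KC. Leaving out 1 library gave medians of 0.55 to 0.64 in phod2, 0.53 to 0.57 in KC, 0.05 to 0.12 in phod2 P- against KC P-, -0.01 to 0.03 in phod2 P+ against KC P+ and 0.11 to 0.17 for the interaction. Members that fell numbered 2 to 4 in phod2 P- against KC P- and 1 to 3 in phod2 P+ against KC P+.

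Replicate numbers did not pair the libraries: deviations of same-numbered libraries correlated between -0.0627 and 0.0619 over genes. With the replicate block, 38 members rose and 18 fell in phod2, 35 rose and 15 fell in KC, 5 rose and 3 fell in phod2 P- against KC P-, 4 rose and 3 fell in phod2 P+ against KC P+, and the interaction was higher in 5 and lower in 4. The depth limits EIL4, MYB90, AT3G21080, NRT2.6 and AtSTS, whose groups hold few reads.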

Other observations

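CAD4, LPR1 and GSTF8 were called in neither comparison between phod2 and KC. CAD4, of lignin synthesis, was the phenylpropanoid member with a KC P- mean above its phod2 P- mean, at 199 ± 1.66 CPM in phod2 P- and 216 ± 1.74 CPM in KC P- (SD, n = 3 each). LPR1, a ferroxidase of the root response to low phosphate, was among the 37 members called in neither genotype between conditions. It averaged 6.37 ± 0.458 CPM in phod2 P-, 5.41 ± 1.15 CPM in phod2 P+, 7.93 ± 0.859 CPM in KC P- and 5.40 ± 0.344 CPM in KC P+ (SD, n = 3 each). GSTF8, a glutathione transferase, had 330.4, 479 and 328 CPM in phod2 P-, with the value of 479 CPM in phod2 P- replicate 2, and 256, 247 and 249 CPM in phod2 P+. Its KC libraries were at 457, 474 and 455 CPM in KC P- and 359, 368 and 384 CPM in KC P+. These genes were chosen after their values had been seen.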
